A study of Mus musculus with 24 samples.

Results

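RNA levels of 9 genes whose proteins bind the 3′ untranslated regions (UTRs) of mRNAs were followed in the mouse hippocampus after fear conditioning. The genes were Cpeb1, Cpeb2, Cpeb3, Cpeb4, Zfp36, Zfp36l1, Zfp36l2, Elavl1 and Pum2, taken by symbol from a table of 47593 genes. All 9 were in the table and reached the minimum level for testing in all comparisons. The hippocampi came from 24 male C57BL/6J mice aged 8 to 12 weeks, either wild type (WT) or Tob knockout (Tob-KO). Mice of each genotype were naive, without conditioning, or were sampled 15 min, 1 h or 3 h after conditioning, with 3 mice in each of 8 groups. The study's methods refer to earlier work for the Tob-KO line and do not state which part of the gene it lacks.

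TOB belongs to a family of proteins that bind the CCR4-NOT complex, which shortens the poly(A) tails of mRNAs. TOB has no known sequence preference of its own and is brought to mRNAs by proteins such as CPEB, which recognise a U-rich element in the 3′ UTR. CPEB proteins can hold an mRNA silent or promote its translation, and in neurons they are known for translation at synapses. ZFP36 and its relatives ZFP36L1 and ZFP36L2 bind AU-rich elements and speed mRNA decay, ELAVL1 (HuR) binds U-rich and AU-rich elements and stabilizes mRNAs, and PUM2 binds a Pumilio element and represses.

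In the GRCm38 annotation, Zfp36 (ENSMUSG00000044786.6) lies on the reverse strand at chr7:28376784-28380253, Zfp36l1 (ENSMUSG00000021127.7) on the reverse strand at chr12:80107754-80113013 and Zfp36l2 (ENSMUSG00000045817.8) on the reverse strand at chr17:84183931-84187947. Cpeb4 (ENSMUSG00000020300.14) lies on the forward strand at chr11:31872211-31935634 and Pum2 (ENSMUSG00000020594.14) on the forward strand at chr12:8674134-8752581.

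The 3 elements were searched for in the longest annotated 3′ UTR of each gene, on the transcribed strand, since mRNAs of RNA-binding proteins can themselves carry such elements. The letters were UAUUUAU for the AU-rich element, UUUUAU for the CPEB element and UGUANAUA for the Pumilio element, and overlapping matches were each counted. One match of Zfp36, Zfp36l1, Zfp36l2, Cpeb2, Cpeb4 and Pum2 is shown with its flanks, 5′ to 3′ as DNA letters of GRCm38, with the element in capitals.
Zfp36, AU-rich element, chr7:28376969-28376991, reverse strand: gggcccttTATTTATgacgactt
Zfp36l1, AU-rich element, chr12:80108170-80108192, reverse strand: tgttggatTATTTATtttagaaa
Zfp36l2, AU-rich element, chr17:84184683-84184705, reverse strand: gtatgtaaTATTTATttcattaa
Cpeb2, CPEB element, chr5:43289558-43289579, forward strand: ttagtttaTTTTATtgttatct
Cpeb4, CPEB element, chr11:31935410-31935431, forward strand: aattcattTTTTATtaaagtca
Pum2, Pumilio element, chr12:8750157-8750180, forward strand: tatagagaTGTATATAgaattata

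Each of the 9 UTRs held at least 1 match to UAUUUAU, an element found in 27.6% of the 21037 annotated 3′ UTRs of any length. Zfp36, Zfp36l1, Zfp36l2 and Cpeb4 each held 3 matches, and Elavl1 held 8, which lay close together and overlapped in part. The UTRs differed much in length, from 774 bases in Zfp36 to 4218 bases in Elavl1. The counts are therefore not comparable between genes, nor with shares over UTRs of any length. In the last 300 bases, a window of equal length, all 3 matches of Zfp36 were found, with 2 of Cpeb4 and 1 of Cpeb2, against 10.2% of 16581 genes with at least 1 match there. Matches to UUUUAU, present in 51.6% of the annotated 3′ UTRs, were most numerous in Cpeb2 with 20 and Cpeb4 with 11. In the last 300 bases Cpeb2 held 5 and Cpeb3, Cpeb4, Zfp36 and Elavl1 held 1 each, against 29.2% of genes with any. The Pumilio element was present in 23.2% of the annotated 3′ UTRs. It occurred in 2 places in the UTR of Pum2, and once each in Cpeb1, Cpeb2 and Cpeb3. No member had it in the last 300 bases, where 9.5% of genes did. These are matches of letters and do not show that a protein binds there.

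Total counts per library ranged from 28847989 to 41595972. Levels are given in CPM, the counts scaled to a common library size with TMM factors. All 24 libraries held reads of Tob1, the targeted gene, with 52.1 to 68.3 CPM in those labelled Tob-KO and 33.9 to 44.5 CPM in WT. Which part of the gene the line lacks is not stated, so these counts neither bear out nor contradict the label. Differences between genotypes below are therefore differences from the libraries labelled Tob-KO. All 9 hippocampal neuron markers had reads in every library. Markers of the choroid plexus, the epithelium that makes cerebrospinal fluid, ranged from 33.3 to 5179 summed CPM (16 of 16 genes in the table). They were low in the 3 WT libraries of 15 min, at 33.3 to 53.6, and high in the 3 labelled Tob-KO at 1 h, at 2317 to 3363, with low and high libraries in the other 6 groups.

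Per kilobase of exon, the 9 genes spanned a wide range of levels. Exon length was the union over all annotated transcripts. It was 10363 bases in Elavl1 and 3470 in Zfp36, where it covered the whole annotated gene. Single transcripts can be shorter, so levels per kb may be too low and their order depends on this length. In CPM Zfp36 was also the lowest of the 9, at 3.42 on average. Pum2 was highest at 34.8 ± 1.0 CPM per kb (SD, n = 24) and Cpeb4 next at 26.2 ± 1.5, and their ranges over the libraries did not overlap. Cpeb1 followed at 16.3 ± 1.4. Cpeb3 at 12.8 ± 0.76 and Cpeb2 at 11.2 ± 0.77 overlapped each other and were below it on average. Zfp36l1 at 9.74 ± 2.1, Zfp36l2 at 7.30 ± 1.5 and Elavl1 at 6.49 ± 0.26 also overlapped, and the highest Zfp36l1 libraries reached into the range of the Cpeb genes. Zfp36 was far lower at 0.985 ± 0.20 CPM per kb, with 74 to 185 reads in a library, so its values carry more counting error than those of the other genes. Genes on the opposite strand overlap 7 of the 9 genes in the annotation, all but Cpeb4 and Pum2. On the same strand 2 genes overlap Cpeb2 and 1 overlaps Cpeb3. Whether the counting used strand, and how it treated reads that overlap more than 1 gene, was not stated. Whether these overlaps added or removed reads is therefore not known.

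The spread over the 24 libraries was widest in the ZFP36 family. The coefficient of variation in CPM was 20.0% in Zfp36, 22.1% in Zfp36l1 and 21.1% in Zfp36l2. It was 8.43% in Cpeb1, 6.93% in Cpeb2, 5.93% in Cpeb3 and 5.70% in Cpeb4, and smallest in Elavl1 at 3.98% and Pum2 at 2.87%.

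**Figure D1:**
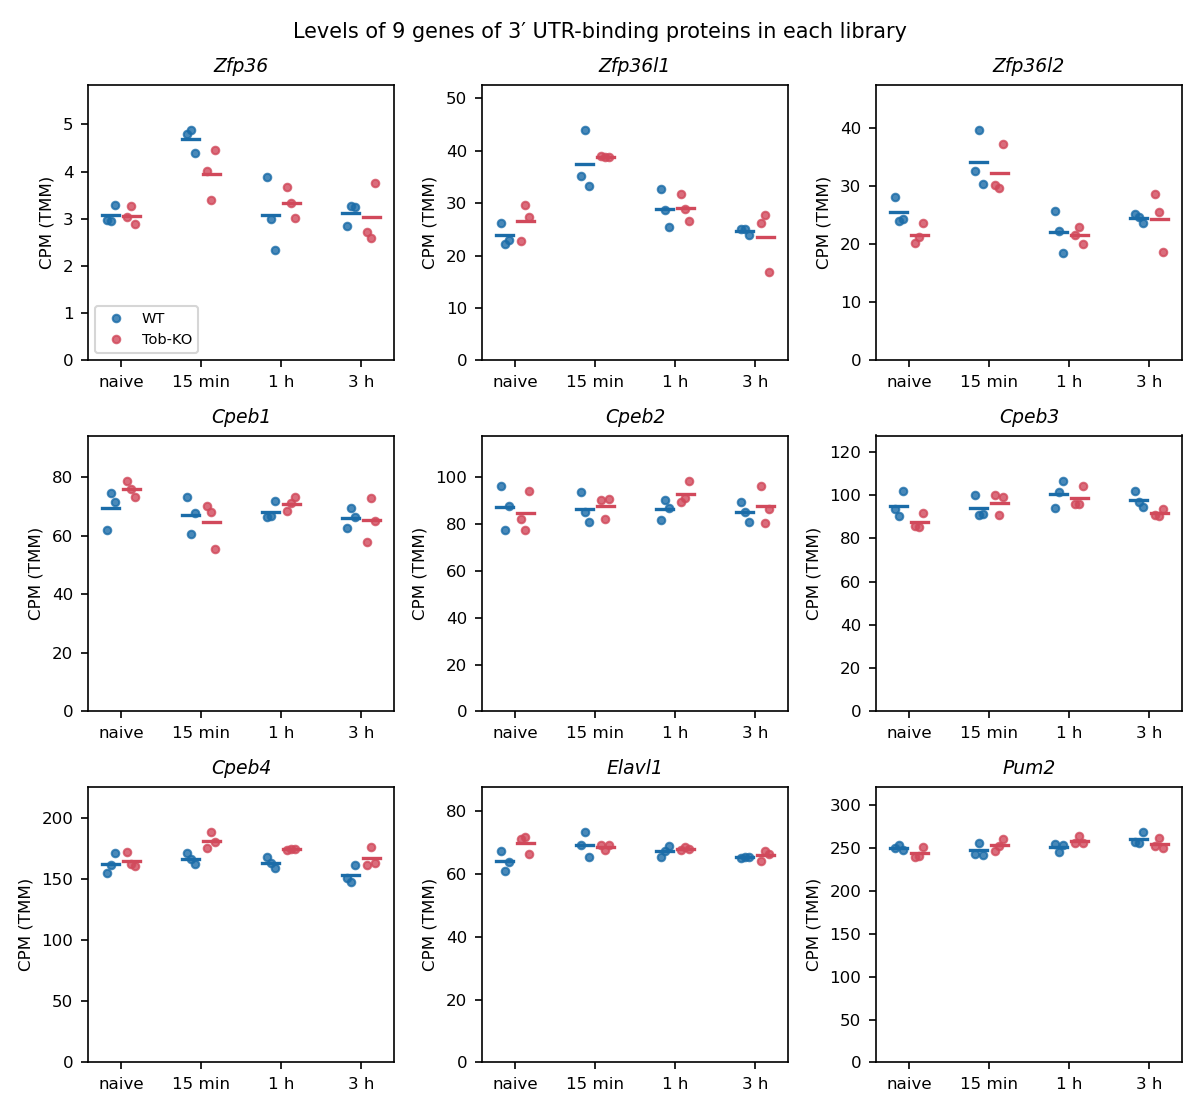
Level of each of the 9 genes in every library, in TMM-normalised CPM on linear axes from 0, at 4 time points for WT (blue) and Tob-KO (red); points are single mice and bars are means of 3. The ZFP36 family genes in the top row are high at 15 min, where all 6 mice lie above all 6 naive mice, while the other 6 genes stay within narrow ranges.

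All 3 genes of the ZFP36 family rose 15 min after conditioning. Zfp36 encodes tristetraprolin, the founding member of the family and itself an early response gene in many cells. Naive WT mice had 2.97, 2.96 and 3.29 CPM, and naive Tob-KO mice 3.04, 3.27 and 2.89. After 15 min WT mice had 4.80, 4.87 and 4.39 CPM, and Tob-KO mice 4.01, 3.39 and 4.47. Each mouse of 15 min was above each naive mouse, with the smallest margin in one Tob-KO mouse. Over both genotypes Zfp36 was 40.4% higher, or 0.49 on the log2 scale (SE 0.11, adjusted p = 0.0187, n = 6 against 6, edgeR's quasi-likelihood test).

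Zfp36l1 encodes a relative known for its part in development and in the vasculature. Naive WT mice had 26.3, 22.2 and 23.0 CPM of it, and naive Tob-KO mice 22.8, 29.7 and 27.4. After 15 min the values were 35.2, 43.8 and 33.2 CPM for WT and 39.0, 38.8 and 38.7 for Tob-KO. The groups did not overlap, and the 3 Tob-KO mice were nearly alike. Averaged over the genotypes, Zfp36l1 was 51.1% higher, or 0.60 on the log2 scale (SE 0.099, adjusted p = 0.00242), the largest change of the 9 genes.

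Zfp36l2, the third relative, is known for its role in the oocyte and in blood cells. Its naive values were 28.1, 23.9 and 24.3 CPM for WT and 20.1, 21.2 and 23.6 for Tob-KO. After 15 min they were 32.6, 39.6 and 30.4 CPM for WT and 30.2, 29.6 and 37.2 for Tob-KO. Again no mouse of 15 min fell to the naive range. Zfp36l2 was 41.5% higher, or 0.50 on the log2 scale (SE 0.096, adjusted p = 0.00637).

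Thus 3 of the 9 genes were called at 15 min, at a false discovery rate (FDR) of at most 0.05, against 4.35% of the 19500 genes tested. The same 3 were the only ones of the 9 whose groups did not overlap, against 1.33% of all genes. None reached a fold change of 2, the limit in the study's methods. Both this limit and the FDR limit were met by 0.179% of genes. Leaving out 1 library at a time kept the Zfp36l1 and Zfp36l2 calls, while Zfp36 passed the threshold narrowly: its adjusted p was 0.0515 without the second WT mouse of 15 min and 0.0672 without the third Tob-KO mouse of 15 min. Higher calls made up 1.6% of all genes. The median log2 change of the 9 genes was 0.06, beside 0.0017 over all genes tested.

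**Figure D2:**
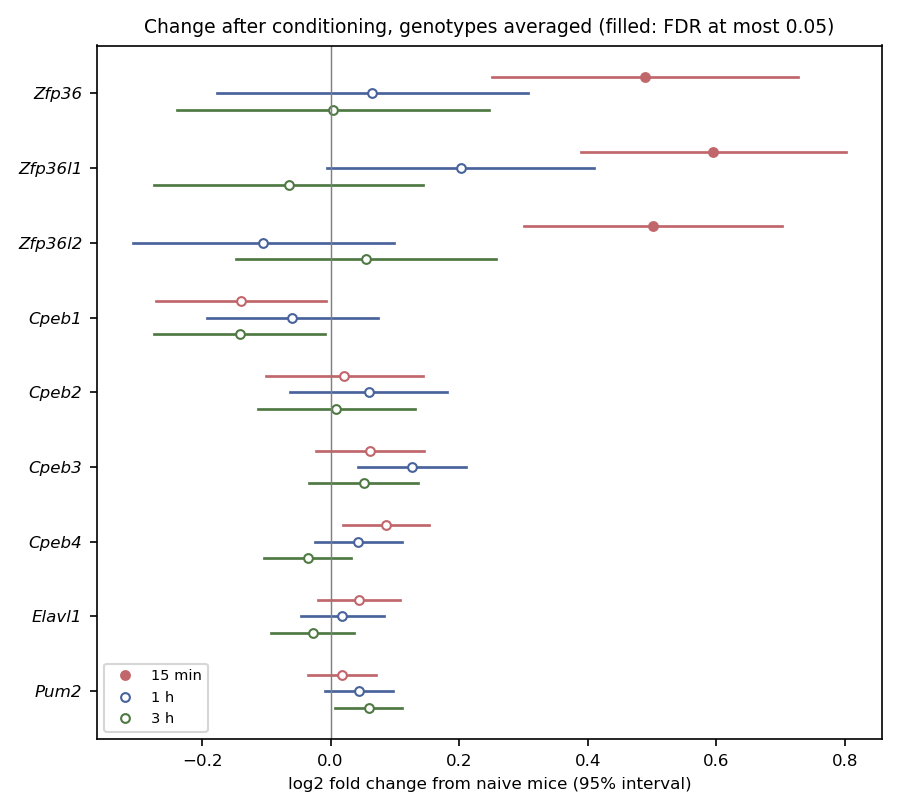
Log2 fold change from naive mice at each of the 3 later time points, averaged over the genotypes, with 95% intervals from the fit over 24 libraries; filled points have an FDR of at most 0.05. The 3 ZFP36 family genes at 15 min, between 0.49 and 0.60, are the only filled points.

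Markers of endothelial cells, which line blood vessels, moved with the ZFP36 family. The summed CPM of the 6 markers (6 of 6 in the table and none at 0 in any library) was 130 to 178 in naive mice and 179 to 263 at 15 min, so these groups barely failed to overlap. It was 140 to 171 at 1 h and 120 to 150 at 3 h. At 15 min 2 of the 6 markers were called, both higher: Cldn5, a tight junction protein of brain endothelium, by 0.85 on the log2 scale (SE 0.15, adjusted p = 0.00285) and Flt1, a VEGF receptor, by 0.42 (SE 0.074, adjusted p = 0.00323). The other 4 estimates were between 0.15 and 0.36. In bulk tissue a change in the number of cells of a type cannot be told apart from a change in RNA per cell.

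Levels were set beside an endothelial score, the mean centred log2 CPM of the 6 markers, also within groups. After each group's mean was removed, Pearson's r with the score was 0.66 for Zfp36l1 and 0.67 for Zfp36l2, and 0.11 for Zfp36, over 24 libraries that share depth and normalisation. It was 0.54 for Pum2 and 0.36 for Elavl1, which were not called at 15 min. With the choroid plexus score, r within groups was 0.40 for both Zfp36l1 and Zfp36l2. Zfp36l1 and Zfp36l2 correlated with each other at 0.82 in the same way, and with Zfp36 at -0.05 and 0.12. These are descriptions of single libraries and were not tested.

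**Figure D3:**
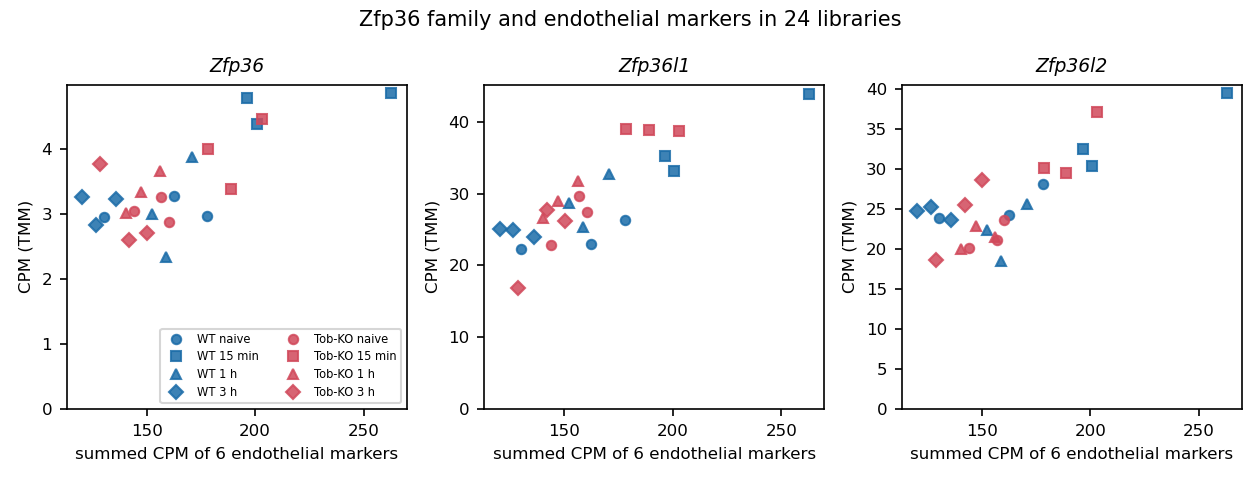
CPM of Zfp36, Zfp36l1 and Zfp36l2 (vertical axes, from 0) against the summed CPM of 6 endothelial markers in the same library (horizontal axes, not from 0); colours are genotypes and symbols time points. The 6 libraries of 15 min (squares) are high on both axes, with the second WT mouse of 15 min at 263 CPM of markers farthest right.

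With the endothelial score as a covariate, a fit chosen after the data were seen, none of the 3 genes was called at 15 min. The estimate for Zfp36 moved little, to 0.44 on the log2 scale (SE 0.17, adjusted p = 0.49). That for Zfp36l1 fell to 0.28 (SE 0.12, adjusted p = 0.53), and that for Zfp36l2 to 0.18 (SE 0.11, adjusted p = 0.68). The score of 15 min did not overlap with that of naive mice or of the later times, so this fit separates time from score poorly. It called 13 genes in all, or 0.0667%, and 6 of the 12 immediate early genes, which neurons switch on within minutes of activity, against 11 of 12 without the covariate. With the choroid plexus score as the covariate, in contrast, the 3 genes remained called, at 0.47 for Zfp36, 0.65 for Zfp36l1 and 0.56 for Zfp36l2. Astrocyte markers also held 2 of 6 called higher at 15 min (Aqp4 and Gja1), whereas none of the 7 microglial, 6 oligodendrocyte, 9 hippocampal neuron, 6 striatal, 7 blood or 16 choroid plexus markers was called there. The part of these markers in the result was not tested.

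The rise was short. From 15 min to 1 h Zfp36l2 fell by 0.61 on the log2 scale (SE 0.097, adjusted p = 0.00852), and it was the 1 gene of the 9 called, against 0.41% of all genes. Its 1 h values were 25.6, 22.3 and 18.5 CPM for WT and 21.6, 23.0 and 20.1 for Tob-KO, all below those of 15 min. Zfp36l1 also had no overlap between 15 min and 1 h, where it was at 25.4 to 32.7 CPM, but missed the threshold (log2 change -0.39, SE 0.099, adjusted p = 0.0792). Zfp36 was at 2.34 to 3.88 CPM at 1 h and overlapped with 15 min (log2 change -0.42, SE 0.11, adjusted p = 0.099). Groups that did not overlap were 1.27% of all genes. Cldn5 and Flt1 fell over the same interval, by 0.94 and 0.34 on the log2 scale (adjusted p = 0.00852 and 0.0425), and with the endothelial score as covariate the Zfp36l2 change was -0.27 (adjusted p = 0.77), in a fit that called 0 genes.

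At 1 h none of the 9 genes was called against naive mice, where 5.89% of all genes were; 1 of the 9, Cpeb3, had an unadjusted p under 0.05, as 19.7% of genes did. Zfp36l1 was 0.20 above naive on the log2 scale, with a 95% interval from -0.0057 to 0.41. From 1 h to 3 h none was called either, against 3.31% of all genes, although Zfp36l1 and Cpeb4 had an unadjusted p under 0.05 (16.4% of genes). At 3 h edgeR's quasi-likelihood test called 0 genes, or 0%, against naive mice (8.95% at an unadjusted p under 0.05, Pum2 and Cpeb1 among them), and DESeq2 called 22 genes but none of the 9. The 3 h estimate was 0.0040 for Zfp36 (95% interval -0.24 to 0.25), -0.06 for Zfp36l1 (-0.27 to 0.14) and 0.05 for Zfp36l2 (-0.15 to 0.26).

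Within each genotype the 15 min rise was seen with less power. In WT the change was 0.61 for Zfp36 (adjusted p = 0.28), 0.65 for Zfp36l1 (adjusted p = 0.15) and 0.42 for Zfp36l2 (adjusted p = 0.47), all 3 without overlap and none called, in a comparison that called 0.0462% of genes. In Tob-KO it was 0.37 for Zfp36 (adjusted p = 0.24), 0.54 for Zfp36l1 (adjusted p = 0.0414) and 0.58 for Zfp36l2 (adjusted p = 0.0297), again without overlap, with 2.51% of genes called. Groups of 3 against 3 did not overlap in 10.6% of genes in WT and 19.2% in Tob-KO. The 2 calls in Tob-KO rested on the spread shared by 24 libraries: fitted on the 6 libraries alone the adjusted p was 0.16 for Zfp36l1 and 0.17 for Zfp36l2. The difference between the genotypes in this rise was tested as an interaction and was called for no gene at any time point (0%, and at 15 min 4.82% at an unadjusted p under 0.05, Elavl1 among them at -0.13). The interaction at 15 min was -0.24 (SE 0.23) for Zfp36, -0.10 (SE 0.20) for Zfp36l1 and 0.16 (SE 0.19) for Zfp36l2 on the log2 scale, so differences in response of this size could not be resolved.

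Promoters were examined for elements of early response genes, since these genes moved together. RefSeq windows of GRCm38.p6, 250 bases before to 50 after the start, matched 7 of the 9 genes, all but Cpeb2 and Zfp36l2. Both strands were searched for TGACGTCA (a cAMP response element), GCGTGGGCG (an EGR site) and the CArG box, the core of the serum response element. They were also searched for TGANTCA, a loose form of the AP-1 site with any base in the middle. Positions are relative to the RefSeq start. For Zfp36 the window, chr7:28379179-28379478, lies inside the annotated gene given above, which begins farther upstream at 28380253. The 2 sources thus place the Zfp36 start differently. The 2 matches were in the ZFP36 family and are shown 5′ to 3′ on the gene's strand with the match in capitals. That of Zfp36l1 has T in the middle, and stricter AP-1 letters were not searched for.
Zfp36, CArG box starting 58 bases before the start, chr7:28379267-28379296, reverse strand: ccaggccgccCCATAAAAGGagaaagctcc
Zfp36l1, AP-1 site starting 129 bases before the start, chr12:80113124-80113153, reverse strand: gaccgcatggcTGATTCAacctcagtgtca

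A CArG box was present in 1.63% and the loose AP-1 letters in 7.81% of 32851 promoters. The cAMP response element was in 1.79% and the EGR site in 0.612%. No match was found for Cpeb1, Cpeb3, Cpeb4, Elavl1 or Pum2 in these windows.

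None of the 4 Cpeb genes passed the test at any time point. Cpeb1, whose protein is the founding CPEB and is known for poly(A) tail lengthening in oocytes and neurons, had lower means after conditioning. It ranged from 61.9 to 78.6 CPM (median 74.0) in naive mice, from 55.4 to 73.1 (median 68.1) at 15 min, from 66.3 to 73.5 (median 69.9) at 1 h and from 57.9 to 73.0 (median 65.9) at 3 h. The groups overlapped at each time. The log2 change was -0.14 at 15 min (SE 0.064, adjusted p = 0.22) and -0.14 at 3 h (SE 0.064, adjusted p = 0.53). In Tob-KO alone the 3 mice of 15 min, at 70.4, 68.2 and 55.4 CPM, were all below the naive ones, with 78.6, 75.9 and 73.4 (log2 change -0.23, adjusted p = 0.17), beside 10.3% of genes lower without overlap. Those of 3 h, with 57.9, 73.0 and 65.2 CPM, were also below them, the nearest by under 1 CPM (log2 change -0.22, adjusted p = 0.42), beside 7.38% of genes lower without overlap. Cpeb1 ran against the endothelial score within groups (r = -0.68), and with that covariate its 15 min estimate was 0.065, with the sign turned.

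Cpeb2, Cpeb3 and Cpeb4 are more alike in sequence to each other than to Cpeb1. Cpeb2 was at 77.4 to 96.2 CPM in naive mice and at 80.7 to 93.6 at 15 min, 81.6 to 98.1 at 1 h and 80.2 to 96.3 at 3 h, with log2 changes of at most 0.06. Cpeb3, known for its part in long-term memory in mice, was at 85.1 to 102 CPM in naive mice and at 94.1 to 106 at 1 h. Its 1 h estimate was 0.13 on the log2 scale (SE 0.040, adjusted p = 0.0683), which did not pass. It passed in DESeq2 (adjusted p = 0.0369) and in 2 of the 24 fits that left out a library. Those 24 fits gave adjusted p from 0.0332 to 0.159, and other alternatives gave up to 0.105. Within Tob-KO the 3 mice of 1 h, at 95.8, 95.7 and 104 CPM, were above the naive ones, with 85.6, 85.1 and 91.9, while in WT the groups overlapped. Cpeb4 and Pum2 also had no overlap in this comparison, beside 9.47% of genes higher without overlap.

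Cpeb4, known for sustaining cytoplasmic polyadenylation after CPEB1 in oocyte meiosis, was the most abundant of the family. It ranged from 155 to 172 CPM (median 162) in naive mice, from 162 to 188 (median 174) at 15 min, from 159 to 175 (median 171) at 1 h and from 148 to 176 (median 162) at 3 h. The log2 change at 15 min was 0.09 (SE 0.032, adjusted p = 0.13). In Tob-KO it was higher at 15 min than in naive mice without overlap, by 0.14 on the log2 scale (adjusted p = 0.12), beside 8.85% of genes higher without overlap.

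Elavl1 and Pum2 varied least. Elavl1 stayed between 61.1 and 73.2 CPM over the 24 mice, and its changes from naive were 0.04, 0.02 and -0.03 on the log2 scale at the 3 later time points in turn, each with an SE of 0.031. The 95% interval at 15 min ran from -0.02 to 0.11. Pum2 stayed between 239.5 and 268 CPM, and its changes were 0.02, 0.04 and 0.06, each with an SE of 0.025. The 3 h estimate of Pum2 had an unadjusted p of 0.0306 and an adjusted p of 0.51. In WT the 3 mice of 3 h, at 257, 256 and 268 CPM, were above the 3 naive mice, at 250.2, 253 and 247, beside 4.11% of genes.

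No gene of the 9 differed between the genotypes under the study's rule, edgeR's exact test with the same FDR limit and a change of at least 2-fold. The rule called 0.0218% of genes in naive mice, 0.555% at 15 min, 0.033% at 1 h and 0.0274% at 3 h. These shares depended on single libraries. Leaving out 1 at a time, the 4 genes called in naive mice became 4 to 53, the 102 at 15 min 30 to 252, the 6 at 1 h 4 to 155 and the 5 at 3 h 3 to 16. The highest counts came without the third naive Tob-KO library, the first Tob-KO library of 15 min, the first WT library of 1 h and the first Tob-KO library of 3 h, and none of the 9 genes was called in any of these fits. By the exact test 0 of the 9 had an unadjusted p under 0.05 at any time, against 4.04%, 8.05%, 5.34% and 3.97% of genes at the 4 time points in that order. By the quasi-likelihood test 1 of the 9 had one at each time (Zfp36l2 in naive mice, then Cpeb4), against 5.44%, 8.59%, 6.25% and 6% of genes. DESeq2 called none of the 9. Over the 9 genes the log2 differences lay between -0.24 and 0.16 at the single time points.

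Cpeb4 was the member nearest to a difference. Naive WT mice had 155, 161 and 172 CPM and naive Tob-KO mice 172, 162 and 161, so these groups overlapped. At 15 min the values were 172, 167 and 162 CPM for WT and 176, 188 and 181 for Tob-KO, without overlap. The 1 h values were 168, 164 and 159 CPM for WT and 174, 175 and 175 for Tob-KO. The 3 h values were 151, 148 and 161 CPM for WT and 162, 176 and 163 for Tob-KO. At the 3 times after conditioning each library labelled Tob-KO was thus above each WT library, although at 3 h by less than 1 CPM. Groups that did not overlap with Tob-KO higher were 7.13% of genes at 15 min, 5.47% at 1 h and 6.14% at 3 h.

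In a fit over all libraries that took time into account, Cpeb4 was 6.46% higher in those labelled Tob-KO (172 against 162 CPM, log2 difference 0.09, SE 0.023, 95% interval 0.04 to 0.14, unadjusted p = 0.000659). The adjusted p was 0.0726 and did not pass, in a comparison that called 0.462% of genes and gave 13.3% an unadjusted p under 0.05, Cpeb4 alone among the 9. DESeq2 gave 0.0237. The 24 fits that each left out 1 library gave 0.0377 to 0.149, and only that without the third naive WT mouse passed. Other alternatives gave up to 0.117. At the single times the difference was 0.03 in naive mice, 0.12 at 15 min, 0.10 at 1 h and 0.12 at 3 h. The interaction with time was not called (0.10, SE 0.065, at 15 min), so a difference between naive and conditioned mice was not shown. Cpeb4 correlated with the choroid plexus score at -0.49 within groups, and the WT libraries of 15 min and the Tob-KO libraries of 1 h lay at opposite ends of that score. With the score as a covariate the difference was 0.10 (adjusted p = 0.067).

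**Figure D4:**
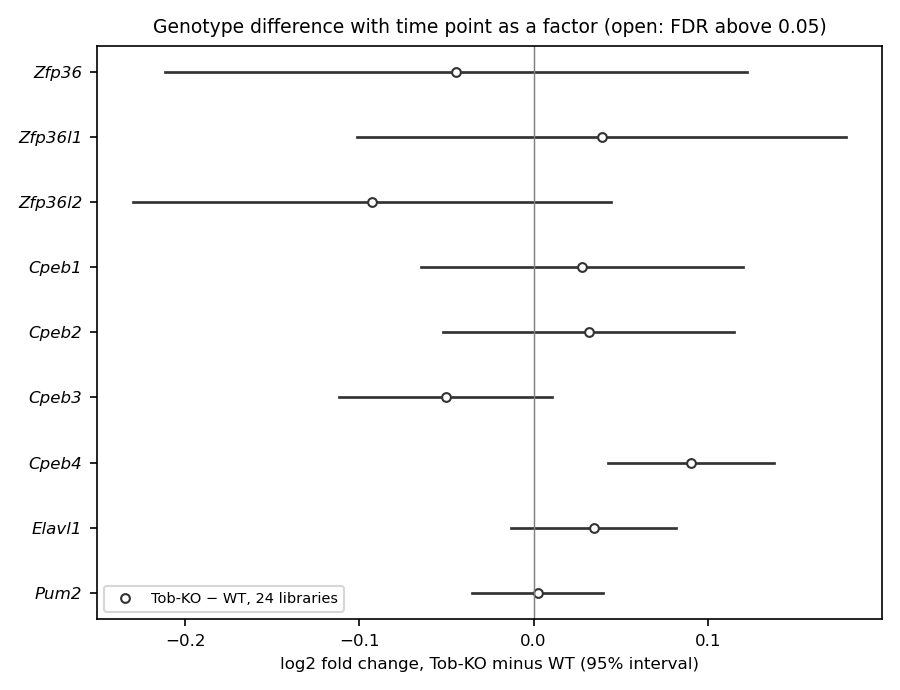
Log2 difference of Tob-KO minus WT over 24 libraries (n = 12 against 12) adjusted for time point, with 95% intervals; open points did not reach an FDR of 0.05. The interval of Cpeb4, from 0.04 to 0.14, is the only one that leaves out 0.

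The other 8 genes had intervals that included 0 in this comparison. Pum2 was known most precisely, at 0.0023 (95% interval -0.04 to 0.04), and Elavl1 was at 0.03 (-0.01 to 0.08). Cpeb1 was at 0.03 (-0.06 to 0.12), Cpeb2 at 0.03 (-0.05 to 0.11) and Cpeb3 at -0.05 (-0.11 to 0.01). The family of Zfp36 had wider intervals, from -0.21 to 0.12 for Zfp36, from -0.10 to 0.18 for Zfp36l1 and from -0.23 to 0.04 for Zfp36l2. Single time points held 3 further groups without overlap. In naive mice Zfp36l2 was lower in Tob-KO, at 20.1 to 23.6 CPM against 23.9 to 28.1 in WT (log2 difference -0.23, SE 0.094, exact test unadjusted p = 0.0681), where 6.33% of genes were lower without overlap. At 1 h Pum2 was at 256 to 264 CPM in Tob-KO against 245 to 255 in WT, beside 5.47% of genes higher without overlap. At 3 h Cpeb3 was at 90.3 to 93.4 CPM in Tob-KO against 94.3 to 102 in WT, beside 6.04% of genes lower without overlap.

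Other genes of the same pathways were counted from fixed lists. At 15 min 1.6% of all genes were called higher and 2.75% lower. Of 33 tested genes of other 3′ UTR binders, 1 rose and 2 fell then: Qk, of the STAR family, was 0.19 higher, and Tia1 and Tial1, related proteins of stress granules, were -0.44 and -0.23 on the log2 scale (adjusted p = 0.0303, 0.00637 and 0.0327). At 1 h 2 rose and 3 fell, against 2.36% of all genes called higher and 3.52% lower. The median of the list was 0.01 at 15 min against 0.0017 over all genes. Of 24 tested genes of the deadenylation and poly(A) machinery, 3 rose and 5 fell at 15 min, against the same 1.6% and 2.75% of all genes. Those with the smallest FDR were Btg2, a TOB relative and immediate early gene (1.21), Cnot10, a CCR4-NOT subunit (-0.22), Tob1 (0.26) and the nuclear poly(A) binding protein gene Pabpn1 (-0.62). The median of that list was -0.02. Between the genotypes Tob1 was the only gene called in either list at an FDR of at most 0.05.

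Reported mRNA targets were looked at in the same way. Of 12 tested CPEB targets, 2 rose at 15 min and none fell, where 1.6% of all genes were called higher and 2.75% lower: Plat, tissue plasminogen activator, by 0.21 (adjusted p = 0.0198) and Egfr, a growth factor receptor, by 0.27 (adjusted p = 0.0202). The median of the list was -0.05. Of 16 ZFP36 targets, 9 passed the filter on low counts, and 3 of these rose at 15 min, beside the same 1.6% of all genes. They were Fos by 2.13 and Dusp1 by 1.13 (adjusted p = 6.98e-06 and 0.000556), and Zfp36, whose protein binds its own mRNA. Fos and Dusp1 are also on the immediate early list and Zfp36 was counted above, so this list added no separate call. The median over the 9 targets, with these 3 included, was 0.43. Of 10 genes that respond to glucocorticoids, 5 were lower at 15 min and none higher, against 2.75% and 1.6% of all genes. Within Tob-KO 5 were called lower (median -0.56), beside 1.68% of genes. Within WT 0 were (median -0.17), in a comparison that called 0% of genes lower. Between the genotypes at 15 min Hif3a and Plin4 were called lower in Tob-KO, beside 0.18% of genes. The interaction at 15 min called 0 of the 10.

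Genes with the most similar pattern over the 8 group means were found among 14441 genes by Pearson's r of log2 CPM, as a description with no test. For Zfp36 these were Ptrf (0.99) and Cyyr1 (0.98), for Zfp36l1 Ifnar1 (0.98) and Atp2a3 (0.97), and for Zfp36l2 Ddc (0.97) and Tmco1 (0.96). The nearest to Cpeb4 were Msl2 (0.996) and S100a6 (0.98). For Cpeb1 they were RP23-413C19.2 and Ttll4, for Cpeb2 Ccne1 and Tex264, for Cpeb3 Agpat9 and Ppargc1a, for Elavl1 Nek3 and Gstm4, and for Pum2 Tasp1 and Thap1, at 0.94 to 0.99. The 8 points come from the same libraries for all genes. Within the family, the group means of Zfp36 correlated at 0.87 with those of both relatives, and those of Zfp36l1 and Zfp36l2 at 0.72 with each other.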

How the data were processed

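Hippocampal poly(A) RNA of 24 mice was sequenced from directional libraries (8 PCR cycles, 150-bp paired-end reads). Per the submitters' processing notes, STAR 2.6.1d, HTSeq 0.9.0 and GRCm38 were used. The counts deposited by the authors were raw and not normalized. The annotation release and strand setting are not given in the sources used here. The labels of the count columns include the word markdup, but whether marked duplicate reads were counted is not stated. Groups and replicate numbers came from the labels. Members and lists were chosen with earlier results of these data known. Genes named were the 9 members, at most 4 genes per list and comparison with the smallest FDR, and the 2 genes most like each member. Tob1 was named as the targeted gene. Marker genes of endothelium and astrocytes were named after their values were seen.

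Counts were TMM-normalized in edgeR 4.0.16 (R 4.3.3), with at least 0.2 CPM in 2 libraries. Genotypes were compared at each time with the exact test on 6 libraries, and standard errors came from the quasi-likelihood fit. Time, the interaction and the genotype over all times were tested by quasi-likelihood over 24 libraries, with Benjamini-Hochberg adjustment over all genes. Alternatives were DESeq2 1.42.0, RLE factors, no filter, marker scores as covariates, a replicate block and leaving out each library. Scripts were tested on simulated data. Figures used matplotlib 3.10.9. Gene coordinates, exon lengths and 3′ UTRs came from GENCODE M21, which may differ from the annotation used for counting.

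Over the 24 pairs of libraries within groups, the chi-square of counts per degree of freedom was 3.68 to 22.8, so no pair was 1 library deposited more than once. Depth was 28847989 to 41595972 counts. Reads carried no molecular identifiers. Same-numbered libraries were checked for pairing by correlating their deviations from group means. The correlations exceeded 0.1 in all 3 pairs only for 15 min against naive in Tob-KO (0.56, 0.60 and 0.15). The labels state no pairing, and the libraries came from different mice. Choroid plexus scores were -2.12, 2.97 and 2.03 in the naive Tob-KO libraries and -2.18, 2.43 and 1.11 in those of 15 min. Their part in these correlations was not tested.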

Additional observations from a re-analysis of the deposited data

Results flagged for a closer look

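Zfp36l1 at 3 h had 1 library far from the others. The third library labelled Tob-KO was at 16.9 CPM, while the next of the 6 mice was at 23.9 CPM and the highest at 27.7 CPM. The gap to the next mouse was 0.653 of the range. Of 36 sets of 6 mice examined, one for each gene and time point, this was the 1 set past Dixon's critical value, and chance flags about 1 in 20. In the same library Zfp36l2 was at 18.6 CPM, the lowest of the 6 mice of 3 h, Zfp36 was at 3.77 CPM, the highest of them, and the endothelial markers summed to 129 CPM, within the range of the 3 h group.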

How the results depend on the processing

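Of 19 counts of members called, those at 3 h against naive, 3 h against 1 h, 1 h against naive within each genotype, the interactions and the genotype at single times stayed at 0 under each alternative run. Over 15 min against naive, 3 members were called, 2 to 3 without single libraries, and 0 with a fold limit of 2 or with the endothelial covariate, chosen after seeing the data. Over 1 h against 15 min, the 1 call became 0 with the fold limit or the endothelial covariate, 2 without the filter or with the choroid plexus covariate, 3 in DESeq2 and 1 to 2 without single libraries; the second call came without the first WT library of 1 h or the third Tob-KO library of 3 h. Within Tob-KO, the 2 calls at 15 min became 0 with the fold limit, the endothelial covariate or the 6 libraries alone, and ranged from 0 to 2 without single libraries. They fell to 0 without any 1 of the 3 naive Tob-KO libraries or the third of 15 min. Within WT, 0 calls became 1 (Zfp36l1) without the filter, with the choroid plexus covariate or in DESeq2, and 0 to 1 without single libraries, the 1 being without the third Tob-KO library of 3 h. At 1 h against naive, 0 became 1 (Cpeb3) in DESeq2 and 0 to 1 without single libraries (the third naive or the first 1 h WT library). The genotype difference over all times went from 0 to 1 (Cpeb4) in DESeq2 and 0 to 1 without single libraries (the third naive WT library).

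The naive Cpeb4 difference ranged from -0.0040 to 0.058 without single libraries, and was below 0 without the first WT or the first Tob-KO library. Cpeb1 at 15 min changed sign with the endothelial covariate (0.065). The cause was not tested. With the replicate block, 3 members were called at 15 min over both genotypes and 2 within Tob-KO, and the block changed no other call of a member. Same-numbered libraries did not deviate together in general (median r -0.04 over 84 pairs). Counts over all genes moved far more: at 15 min against naive from 848 to between 317 and 1315 without single libraries and to 13 with the endothelial covariate. For the genotypes at 15 min 102 genes became 0 by quasi-likelihood and 35 in DESeq2. At 1 h against 15 min 80 genes became 13 to 225 without single libraries and 360 at most otherwise. Depth limits Zfp36 most, with 74 to 185 reads per library. PCR reads are not independent molecules. The p-values measure the spread between mice within groups of 3, pooled over 24 libraries in the quasi-likelihood fits of time and interaction. In the fit of genotype over all times, the spread over 24 libraries also held any change of the genotype difference with time. In the exact tests at single times the spread came from 6 libraries.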
